A study of Mus musculus with 6 samples.

Results

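The endoplasmic reticulum (ER) unfolded protein response was followed through 10 of its genes in bone marrow–derived macrophages (BMDMs) with and without the mitochondrial fission GTPase DRP1. They were *Hspa5*, *Hsp90b1*, *Calr*, *Dnajb9*, *Sdf2l1*, *Creld2*, *Pdia4*, *Herpud1*, *Ern1* and *Xbp1*, picked by name as genes of this response with earlier results of these data known, and make up 10 of the 18506 genes tested. WT BMDMs came from LysM-Cre+/- Drp1+/+ mice and Drp1 KO BMDMs from LysM-Cre+/- Drp1 fl/fl littermates, so both genotypes carried a Cre driven by the lysozyme M promoter, which is active in myeloid cells. Mice of both sexes aged 8 to 12 weeks were used, and marrow of 2 mice per genotype was pooled. The sample titles number the libraries of each genotype as biological replicates, and the sources do not say whether each came from a separate pool. The p-values rest on the spread between libraries, which edgeR estimates for each gene partly from other genes. After 7 days in medium conditioned by L929 fibroblasts, a source of the growth factor M-CSF, the cells spent 8 hours under hypoxia and serum starvation (HSS), the study's culture model of ischemia. Poly(A) RNA of 3 WT and 3 Drp1 KO libraries was sequenced to 23389488 to 32231206 estimated reads per library. All libraries came from HSS, so the effect of HSS itself cannot be read from them.

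The ER folds secreted and membrane proteins. When unfolded proteins build up there, the sensors IRE1, PERK and ATF6 are released from the chaperone BiP and raise the supply of chaperones, folding enzymes and degradation factors. IRE1 cuts a short intron out of *Xbp1* mRNA, PERK slows translation and favours the transcription factor ATF4, and ATF6 is cleaved to an active factor. Macrophages secrete many proteins, and in them IRE1 and XBP1 are also known for a part in cytokine production.

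Under HSS, the fold changes of the 10 genes were positive for 5 and negative for 5. BiP and the J-protein *Dnajb9* had higher levels in every Drp1 KO library than in any WT library, at 1.17-fold and 1.34-fold. The chaperones *Hsp90b1* and *Calr* and the co-factor *Creld2* had lower levels in every Drp1 KO library, at 0.772-fold, 0.810-fold and 0.745-fold. *Xbp1*, *Pdia4*, *Herpud1*, *Sdf2l1* and *Ern1* overlapped between the genotypes. None of these differences passed the unpaired test. In edgeR's quasi-likelihood test on all genes, 0 of the 10 reached an adjusted p under 0.05, against 3.36% of all genes tested (2.29% higher and 1.06% lower). At an unadjusted p under 0.05 there were 5 of the 10, against 16.4% of all genes. DESeq2 called 2, *Dnajb9* and *Hsp90b1*, against 8.8% of the 13119 genes to which it gave an adjusted p, and limma-voom called 0 against 3.37%. The median log2 fold change, Drp1 KO relative to WT, was -0.02 over the 10 genes and 0.00 over all genes.

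Libraries of the 2 genotypes with the same number tended to deviate together from their group means, most of all libraries 1 (correlation 0.547). WT library 2 went more with Drp1 KO library 3 (0.344) than with Drp1 KO library 2 (0.223). A paired fit with the library number as a block was set beside the unpaired one. The pairing was chosen from these same data, so its p-values may be too small. The paired fit called 3 of the 10, *Dnajb9* and *Ern1* higher and *Hsp90b1* lower, while it called 12% of all genes (6.73% higher and 5.22% lower). The study's own criteria were an absolute log2 fold change above 0.32 with p, not adjusted, below 0.05. By these the unpaired fit counted 3 of the 10, *Dnajb9* higher and *Hsp90b1* and *Creld2* lower, against 12.7% of all genes (7.19% higher and 5.48% lower). The 5 genes without overlap stood against 21.9% of all genes (11.7% higher and 10.3% lower), and against 31.2% of the 7954 genes averaging 10 CPM or more. Shares called by p-value were not taken over such genes alone, so they include genes of low counts. CPM are counts scaled to a common library size after TMM normalization.

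**Figure D1:**
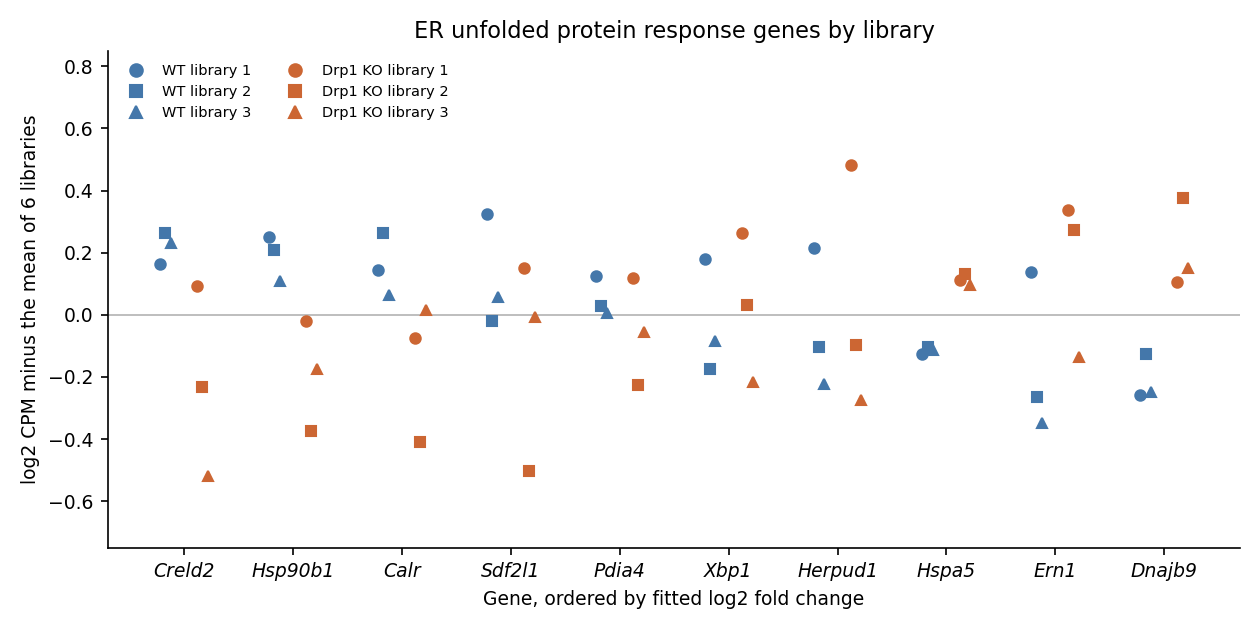
Level of each of the 10 genes in every library, as log2 CPM minus the gene's mean over the 6 libraries (y axis), with genes ordered by fitted log2 fold change (x axis). Blue marks are WT, orange marks Drp1 KO, and circles, squares and triangles are libraries 1, 2 and 3. *Hspa5* and *Dnajb9* lie higher and *Creld2*, *Hsp90b1* and *Calr* lower in the 3 Drp1 KO libraries, and the other 5 genes overlap.

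The deleted gene was modestly lower at the mRNA level and did not pass the test. *Dnm1l*, which encodes DRP1, was at 72.7, 69.9 and 75.1 CPM in WT libraries 1 to 3 and at 58.7, 60.7 and 66.3 CPM in the libraries labelled Drp1 KO. The groups did not overlap, and the log2 fold change was -0.23 (SE 0.0921, adjusted p = 0.248). Reads from exons outside the floxed part count toward this level, and the exons removed are not given in the sources used here. Libraries 1 of both genotypes were the highest of their group in 6 of the 10 genes (*Hsp90b1*, *Sdf2l1*, *Pdia4*, *Herpud1*, *Ern1* and *Xbp1*). The same held for 23.2% of all genes tested and 39.7% of genes averaging 10 CPM or more. Without both libraries 1, an alternative added after the data were seen, *Dnajb9*, *Hsp90b1* and *Creld2* were called, 3 of the 10 against 10.5% of all genes (5.94% higher and 4.56% lower). Without both libraries 1, these 3 with *Calr* and *Ern1* were the 5 that met the study's criteria, against 17.3% of all genes (9.31% higher and 7.99% lower). *Dnajb9*, *Hsp90b1* and *Creld2* were also called with only Drp1 KO library 1 left out, against 4.96% of all genes. *Dnajb9* was the 1 gene of the 10 called with edgeR's filterByExpr (4.67% of all genes) and with no filter beyond 1 count (4.43%).

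Markers of other cell types moved with the genotype in part. Summed macrophage markers were at 13412 to 14811 CPM for WT and 11993 to 14417 CPM in Drp1 KO libraries. Of 8 markers *Fcgr1* was called higher and *Csf1r* and *Mertk* lower, against 3.36% of all genes called. Neutrophil markers summed to 52.7 to 66.8 CPM for WT and 65.5 to 95.0 CPM in Drp1 KO libraries, with *Ly6g* at 0 in every library. Of 8 tested, 7 were higher and 0 called by edgeR. The paired fit called 4, against 12% of all genes, and 4 had an unadjusted p under 0.05, against 16.4%. B and plasma cell markers summed to 61.6 to 75.6 and 68.3 to 139 CPM, with 6 of 8 tested higher and *Igkc* and *Jchain* called, against 3.36% of all genes. T and NK cell markers summed to 312 to 328 and 128 to 252 CPM with *Ncr1* at 0. Of 5 tested, 2 were higher and 3 lower, with 0 called. The paired fit called 1 lower, against 5.22% of all genes, and 1 had an unadjusted p under 0.05, against 16.4%. Endothelial markers summed to 25.1 to 31.1 and 38.0 to 43.2 CPM. Of 4 tested, *Kdr* was called higher, against 2.29% of all genes. Dendritic cell markers (3.75 to 5.83 and 2.36 to 4.43 CPM) and fibroblast markers (14.0 to 21.6 and 13.6 to 16.7 CPM) overlapped. The part of these cells in the levels of the 10 genes was not tested, and in bulk RNA fewer cells of a type and less RNA per cell cannot be told apart.

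*Hspa5*, which encodes BiP, the ER form of HSP70 and the chaperone that holds the 3 sensors inactive, was the steadiest of the 10 genes. On chromosome 2 of the GRCm39 build it spans 34661982 to 34668880. Its level was 983, 998 and 990 CPM in WT libraries 1 to 3 and 1158, 1175 and 1146 CPM in Drp1 KO libraries. Every Drp1 KO library was above every WT library, and library 1 did not stand apart. The means were 990 ± 7.34 and 1160 ± 14.6 CPM (n = 3 each, SD), and the log2 fold change was 0.23 (SE 0.0887, adjusted p = 0.230). This SE also draws on the spread of other genes, not on the values of *Hspa5* alone. In pairs of equal number the log2 difference was 0.24, 0.24 and 0.21, and it ran from 0.22 to 0.24 with each library left out. The paired fit gave an adjusted p of 0.0542, and no alternative called the gene (0.0542 to 0.543).

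*Hsp90b1* encodes GRP94, the ER member of the HSP90 family, whose clients include Toll-like receptors and integrins. It lies on chromosome 10 from 86526073 to 86541446. Its level was 1972, 1915 and 1786 CPM in WT libraries and 1635, 1279 and 1467 CPM in Drp1 KO libraries. All 3 Drp1 KO libraries were below the WT libraries, with library 2 the lowest. The log2 fold change was -0.37 (SE 0.114, adjusted p = 0.122), and in the paired fit it fell by 0.38 (SE 0.0812, adjusted p = 0.0126). The call was also made by DESeq2 (adjusted p = 0.0302), without Drp1 KO library 1 (-0.47, adjusted p = 0.0489) and without both libraries 1 (-0.43, adjusted p = 0.0267), and over all alternatives the adjusted p ran from 0.0126 to 0.350.

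*Calr* encodes calreticulin, a lectin chaperone of glycoproteins that also binds calcium, and lies on chromosome 8 from 85567946 to 85573667. Its level was 1897, 2061 and 1795 CPM in WT libraries and 1632, 1293 and 1736 CPM in Drp1 KO libraries. The groups did not overlap, but Drp1 KO library 3 and WT library 3 lay close together. The pairs differed by -0.22, -0.67 and -0.05 on the log2 scale. The log2 fold change was -0.30 (SE 0.127, adjusted p = 0.264, paired fit 0.0879), and no alternative called it (0.0879 to 0.597). Without Drp1 KO library 2, the lowest, the log2 fold change was -0.18. Between 62.7% and 66.3% of the gene's counts were assigned to Calr-204, a transcript of 943 bases annotated as retaining an intron. With counts rescaled for transcript length the log2 fold change was also -0.30.

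BiP, GRP94 and calreticulin are abundant chaperones of the same compartment, and their mRNA levels were set against each other within each library. The ratio of *Hspa5* to *Hsp90b1* CPM was 0.498, 0.521 and 0.554 in WT libraries and 0.709, 0.919 and 0.781 in Drp1 KO libraries. The ratio of *Hspa5* to *Calr* was 0.518, 0.484 and 0.552 in WT and 0.710, 0.909 and 0.660 in Drp1 KO libraries. Neither ratio overlapped between the genotypes. The ratio of *Calr* to *Hsp90b1* ran from 0.962 to 1.08 in WT and from 0.998 to 1.18 in Drp1 KO libraries, and did overlap. These ratios were chosen after the levels were seen, do not depend on the scaling between libraries, and were not tested. Per length, the 3 mRNAs were at 654, 1087 and 2583 TPM, the length-corrected unit, in WT and 755, 796 and 1977 TPM in Drp1 KO BMDMs, in the order *Hspa5*, *Hsp90b1* and *Calr*. The value of *Calr* rests on the reads assigned to the short Calr-204, at 2078 to 2287 TPM in WT and 1318 to 1938 TPM in Drp1 KO libraries. The coding Calr-201 had 410 to 450 TPM in WT and 294 to 370 TPM in Drp1 KO libraries, below *Hspa5*, so no order of these 3 is read from TPM.

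*Dnajb9* encodes ERdj4, a J-protein that works with BiP and helps keep IRE1 inactive, and had the largest positive fold change of the 10 genes. It lies on chromosome 12 from 44252341 to 44257171. Its level was 95.4, 105 and 95.9 CPM in WT libraries and 123, 148 and 127 CPM in Drp1 KO libraries. The groups did not overlap and each pair moved the same way, by 0.36, 0.50 and 0.40 on the log2 scale. The means were 98.6 ± 5.14 and 132 ± 13.6 CPM, a log2 fold change of 0.43 (SE 0.102, adjusted p = 0.0523). In the paired fit it rose by 0.42 (SE 0.0718, adjusted p = 0.00402). It was called in 6 of 15 alternatives, among them the fit without Drp1 KO library 1 (0.47, adjusted p = 0.0344), with adjusted p-values from 0.00402 to 0.226.

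*Sdf2l1* and *Creld2* are ER proteins of lower abundance whose mRNAs are known to climb in ER stress. SDF2L1 works beside J-proteins in the BiP cycle, and CRELD2 is a small disulfide isomerase-like protein. *Creld2*, on chromosome 15 from 88703795 to 88710890, was at 11.8, 12.6 and 12.3 CPM in WT libraries and 11.2, 8.95 and 7.33 CPM in Drp1 KO libraries. The groups did not overlap, though Drp1 KO library 1 was near the WT libraries. The log2 fold change was -0.42 (SE 0.163, adjusted p = 0.223, paired fit 0.0620). Without Drp1 KO library 1 it was -0.60 and called (adjusted p = 0.0476), and without both libraries 1 it was -0.62 and called (adjusted p = 0.0230), within a range of 0.0230 to 0.479 over all alternatives. Without Drp1 KO library 3 it was -0.28. *Sdf2l1*, on chromosome 16 from 16948002 to 16950252, was at 31.1, 24.5 and 25.9 CPM for WT and 27.6, 17.6 and 24.8 CPM in Drp1 KO libraries. The groups overlapped, and the log2 fold change was -0.22 (SE 0.168, adjusted p = 0.593). Leaving out WT library 1 gave -0.12, and leaving out library 1 or 2 of Drp1 KO gave -0.37 or -0.048.

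*Pdia4* encodes ERp72, a protein disulfide isomerase, and *Herpud1* encodes HERP, which joins the ubiquitin ligase complex of ER-associated degradation. *Pdia4*, on chromosome 6 from 47770077 to 47790462, was at 155, 145 and 143 CPM for WT and 155, 122 and 137 CPM in Drp1 KO libraries (log2 fold change -0.10, SE 0.106, adjusted p = 0.726). *Herpud1*, on chromosome 8 from 95113022 to 95123141, was at 28.3, 22.8 and 21.0 CPM for WT and 34.1, 22.8 and 20.2 CPM in Drp1 KO libraries (log2 fold change 0.10, SE 0.194, adjusted p = 0.886). Both genes overlapped between the genotypes. For *Herpud1*, the number of the library separated the values more than the genotype, with library 1 highest in both groups. Its log2 fold change turned to -0.17 without Drp1 KO library 1, and was 0.32 with length-scaled counts. That of *Pdia4* was -0.20 or -0.014 when library 1 or 2 of Drp1 KO was left out. The main coding transcript, Herpud1-205, took on average 91.9% of the gene's counts in WT and 81.0% in Drp1 KO libraries, and Herpud1-202, annotated as a target of nonsense-mediated decay, 0.607% and 5.97%, as kallisto split the reads.

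**Figure D2:**
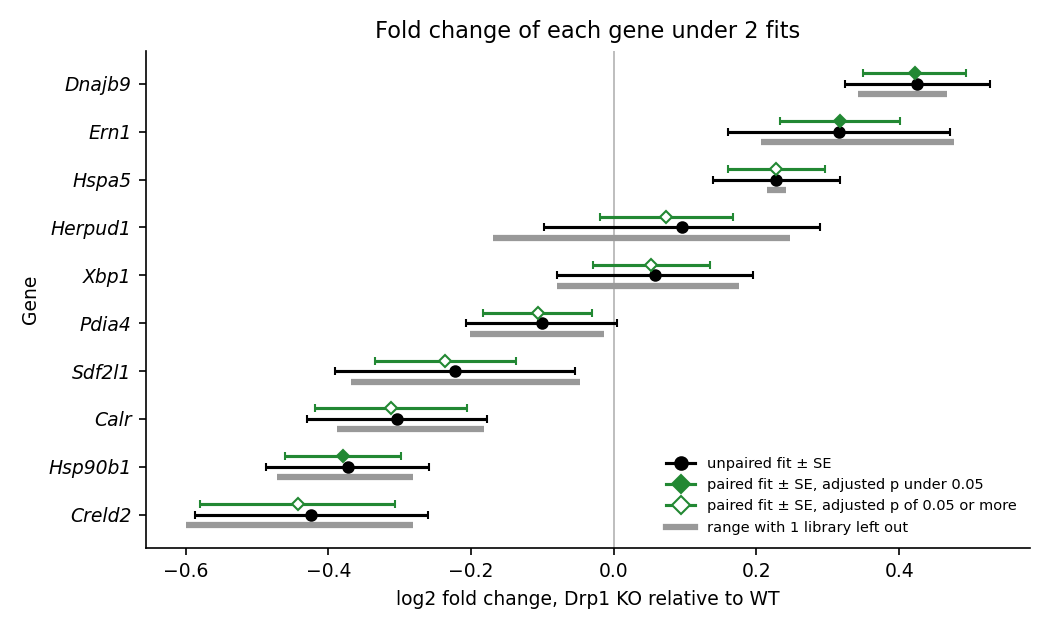
Log2 fold change of each of the 10 genes, Drp1 KO relative to WT (x axis), with genes on the y axis. Black points are the unpaired and green diamonds the paired edgeR fit with SE bars, filled diamonds have an adjusted p under 0.05, and grey bars span the unpaired fits with 1 library left out. *Dnajb9*, *Ern1* and *Hsp90b1* are filled, and the grey bars of *Herpud1* and *Xbp1* cross 0.

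*Ern1* encodes IRE1α, the sensor that is both a kinase and an endoribonuclease, and lies on chromosome 11 from 106283818 to 106378686. Its level was 149, 113 and 107 CPM in WT libraries and 171, 164 and 124 CPM in Drp1 KO libraries. WT library 1 was above Drp1 KO library 3, so the groups overlapped, while each Drp1 KO library was above the WT library of its own number, by 0.20, 0.54 and 0.21 on the log2 scale. The means were 123 ± 23.1 and 153 ± 25.7 CPM, a log2 fold change of 0.32 (SE 0.156, adjusted p = 0.358). In the paired fit it rose by 0.32 (SE 0.0844, adjusted p = 0.0343). That fit was the only one of 15 alternatives to call it, and the adjusted p ran from 0.0343 to 0.727. Its log2 fold change was 0.48 without WT library 1 and 0.21 without WT library 3. The canonical transcript Ern1-201 took on average 79.6% of its counts in WT and 86.6% in Drp1 KO libraries.

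*Xbp1* encodes the transcription factor that IRE1 activates, and its total mRNA did not pass the test. It lies on chromosome 11 from 5470606 to 5483027. Its level was 130, 102 and 109 CPM in WT libraries and 138, 118 and 99.3 CPM in Drp1 KO libraries. The groups overlapped, and the log2 fold change was 0.06 (SE 0.137, adjusted p = 0.910), with the sign turning without WT library 2 (-0.03) or Drp1 KO library 1 (-0.08).

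The activity of IRE1 on *Xbp1* leaves a mark in the transcript itself, since it removes 26 bases and thereby shifts the reading frame. The annotation places these bases at chr11:5474278-5474303 of GRCm39, on the plus strand, inside an exon that runs from 5474239 to 5474384. The sequence is shown with 20 bases on either side, because the share of transcripts without the removed bases is the readout below. Capitals mark those bases as annotated. A G opens both the capitals and the bases after them, so a placement that starts at the next base leaves the same joined sequence.
Xbp1 intron: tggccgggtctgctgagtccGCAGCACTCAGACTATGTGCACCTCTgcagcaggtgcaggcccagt

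Among the annotated transcripts, Xbp1-205 lacks these bases and Xbp1-201, Xbp1-203 and Xbp1-204 keep them. The share of Xbp1-205 in the estimated counts of the 4 was 30.2%, 20.5% and 14.8% in WT libraries 1 to 3 and 31.5%, 14.8% and 15.7% in Drp1 KO libraries. The 95% Wilson intervals, which cover counting error only, were 28.5% to 31.8%, 19.0% to 22.1% and 13.6% to 16.0% in WT and 29.8% to 33.2%, 13.7% to 15.9% and 14.5% to 17.0% in Drp1 KO libraries. Libraries 1 of both genotypes were the highest, and the others overlapped. The mean share was 21.8 ± 7.77% in WT and 20.7 ± 9.38% in Drp1 KO libraries, a difference of -1.15 percentage points (two-sided exact permutation test, p = 1, where 0.1 is the lowest value that 3 against 3 can give). Without both libraries 1 the difference was -2.39 percentage points (exact permutation p = 1), and it turned positive without WT library 1 (3.02) and without library 2 (1.80) or 3 (1.32) of Drp1 KO. By TPM the shares were higher, and libraries 1 were again the top ones, at 46.9% in WT and 47.9% in Drp1 KO against 25.6% to 33.5% in the others. Xbp1-205 is annotated with 1116 bases and stops short of the 3′ end of Xbp1-201, which has 2129, so the shares are estimates that rest on this annotation as well as on the 26 bases.

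**Figure D3:**
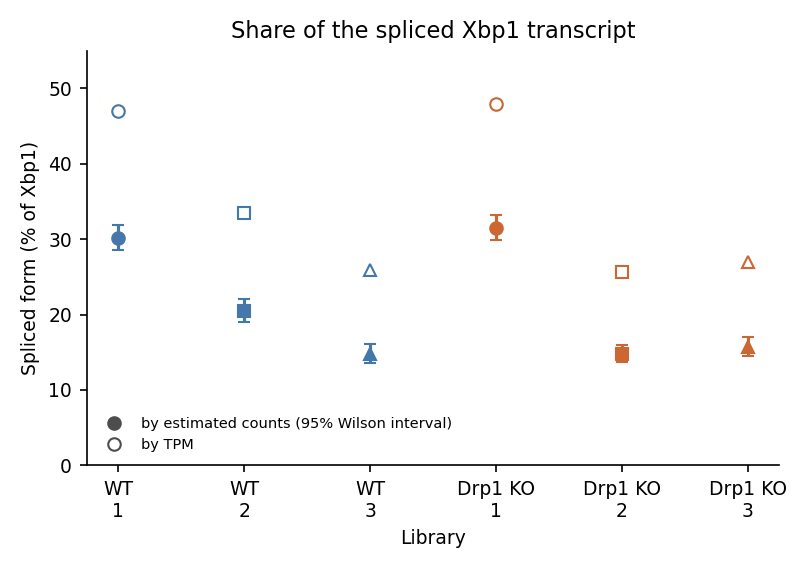
Share of the *Xbp1* transcript that lacks the 26 bases, in percent (y axis), in each library (x axis). Filled marks are shares of estimated counts with 95% Wilson intervals and open marks shares of TPM. Libraries 1 of both genotypes, at 30.2% and 31.5% of counts, are above the other 4, at 14.8% to 20.5%.

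The promoters of several of the 10 genes hold the ER stress response elements that ATF6 and XBP1 are known to bind with the factor NF-Y. The 300 bases before the start of the canonical transcript were searched on both strands for ERSE (CCAAT, any 9 bases, then CCACG), ERSE-II (ATTGG, any base, then CCACG) and the core of the unfolded protein response element (TGACGTGG). ERSE was found in 4 of the 10 genes and in 25 of 21757 promoters (0.115%), ERSE-II in 1 of the 10 and in 12 promoters (0.0552%), and the third in 0 of the 10 and in 136 promoters (0.625%). These 10 are counted among the promoters and were picked as genes of this response, so the shares are a description and not a test. The matches are printed because they fall in genes of both directions. Each window is 30 bases on the gene's strand, with the fixed letters of the motif in capitals. They lie at chr2:34662031-34662060 (*Hspa5*, plus strand), chr10:86541497-86541526 and chr10:86541392-86541421 (*Hsp90b1*, minus strand), chr8:85573699-85573728 (*Calr*, minus strand), chr15:88703717-88703746 (*Creld2*, plus strand) and chr8:95112995-95113024 (*Herpud1*, plus strand) of GRCm39.
Hspa5 ERSE: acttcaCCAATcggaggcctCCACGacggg
Hsp90b1 ERSE, far: acaagcCCAATcgcaaggagCCACGcttcg
Hsp90b1 ERSE, near, reverse: agagtgCGTGGtgaggcacgATTGGtgagt
Calr ERSE, reverse: acaacgCGTGGtcgaccctcATTGGcccat
Creld2 ERSE, reverse: gcttctCGTGGcgagcctcaATTGGtccac
Herpud1 ERSE-II: ccgggcgctgATTGGgCCACGttggacact

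The 4 genes with an ERSE match did not share a direction. *Hspa5* was higher in each Drp1 KO library and *Hsp90b1*, *Calr* and *Creld2* were lower. *Dnajb9*, the gene with the largest positive fold change, held none of the 3 motifs in this window, which says only that these letters are absent there. The distances from the transcript start were 67 to 49 bases for *Hspa5*, 142 to 124 and 37 to 19 for *Hsp90b1*, 55 to 37 for *Calr*, 90 to 72 for *Creld2* and 32 to 22 for *Herpud1*.

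Among the genes whose levels followed *Hspa5* most closely over the 6 libraries were *Mbtps2*, *Dcaf13*, *Usp25* and *Tm9sf4*. Likeness was the root mean square difference in log2 CPM, each gene centred on its own mean, among 7954 genes, and came to 0.0197, 0.0214, 0.0254 and 0.0304 for these 4. *Mbtps2*, which encodes the site-2 protease that cleaves ATF6, was at 53.7, 55.4 and 55.7 CPM for WT and 64.5, 67.2 and 64.1 CPM in Drp1 KO libraries. Its log2 fold change of 0.25 (SE 0.086, adjusted p = 0.175, paired fit 0.0541) did not pass the test. Of the other 9 genes, *Dnajb9* came nearest to *Hspa5*, at rank 1817 of 7953, and *Hsp90b1*, *Sdf2l1* and *Creld2* were at ranks 7036, 7074 and 7393.

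Around the 10 genes, 104 other genes of ER stress and protein folding were listed by role, with earlier results of these data known. The shares below are therefore a description and not a test. Of the 104, 103 were tested and 6 called, all 6 higher, or 5.83% against 3.36% of all genes. Outside the PERK and ATF4 arm, 2 of 87 were called. The paired fit called 21, with 13 higher and 8 lower, or 20.4% against 12% of all genes (6.73% higher and 5.22% lower). The 10 other sensors and factors had a median log2 fold change of -0.04 and 0 calls (2 at an unadjusted p under 0.05, against 16.4% of all genes, and 0 in DESeq2 and limma-voom). Among them *Atf6*, the gene of the sensor, was at 139 ± 12.3 CPM for WT and 151 ± 5.69 CPM in Drp1 KO libraries (adjusted p = 0.643), and *Rtcb*, the ligase that rejoins *Xbp1* after the cut, at 56.7 ± 5.48 and 49.7 ± 4.06 CPM (adjusted p = 0.429). The paired fit called *Eif2ak3*, the gene of PERK, which fell from 50.7 ± 1.48 to 40.8 ± 3.04 CPM (log2 fold change -0.31, paired adjusted p = 0.0340, unpaired 0.124). It is named after its values were seen.

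Other ER chaperones had mostly negative fold changes that did not pass the unpaired test. Of 19, 15 were negative, with a median of -0.16, 0 calls (4 at an unadjusted p under 0.05, against 16.4% of all genes, and 0 in DESeq2 and limma-voom) and 2 lower calls in the paired fit, against 5.22% of all genes called lower there. *Canx*, the membrane-bound partner of calreticulin, was at 1388, 1229 and 1128 CPM for WT and 1160, 964 and 991 CPM in Drp1 KO libraries, so the groups overlapped. Its log2 fold change was -0.27 (SE 0.117, adjusted p = 0.294), and it was called in the paired fit (adjusted p = 0.0347) and in no other alternative (up to 0.584). With length-scaled counts it was -0.57 (adjusted p = 0.109). *Ppib*, a prolyl isomerase, was at 234 ± 15.7 and 207 ± 9.34 CPM (adjusted p = 0.380).

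The 15 disulfide isomerases and oxidases had a median of -0.03. *Prdx4*, an ER peroxiredoxin that uses peroxide to form disulfides, was the one called, and it rose from 14.4, 14.4 and 13.6 CPM in WT libraries to 21.6, 19.0 and 19.4 CPM in Drp1 KO libraries (log2 fold change 0.50, SE 0.113, adjusted p = 0.0412). The call was lost with each of the 6 libraries left out in turn (adjusted p from 0.0576 to 0.208) and with length-scaled counts (0.0970). DESeq2 called 2 of the 15, against 8.8% of all genes, and the paired fit 3, with 1 higher and 2 lower, against 12% (6.73% and 5.22%). Among the lower was *P4hb*, a protein disulfide isomerase named after its values were seen, which fell from 864 ± 51.0 to 707 ± 11.5 CPM (log2 fold change -0.29, paired adjusted p = 0.0260, unpaired 0.138). *Pdia3*, which folds glycoproteins with calnexin and calreticulin, was at 900 ± 7.09 and 727 ± 72.0 CPM (log2 fold change -0.31, adjusted p = 0.149), and the paired fit called it (adjusted p = 0.0226). *Ero1a*, a thiol oxidase known to respond to hypoxia, was at 1518 ± 146 and 1752 ± 246 CPM (adjusted p = 0.486).

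ER-associated degradation had 15 of 22 genes with positive fold changes, a median of 0.05 and 0 calls (3 at an unadjusted p under 0.05, against 16.4% of all genes, 1 each in DESeq2, limma-voom, library size only, filterByExpr and no filter beyond 1 count, and 3 in the paired fit, with 1 higher and 2 lower, against 12% of all genes). *Ubxn4* was at 297 ± 31.5 and 271 ± 41.1 CPM (adjusted p = 0.703) and *Erlec1* at 128 ± 1.72 and 129 ± 8.64 CPM (adjusted p = 0.957). The 16 genes of translocation into the ER had 13 positive fold changes, a median of 0.10, 1 call against 3.36% of all genes, and 2 calls in the paired fit, 1 higher and 1 lower, against 12%. *Ssr3*, a subunit of the translocon-associated protein complex, rose from 562, 527 and 534 CPM in WT to 702, 732 and 719 CPM in Drp1 KO libraries (log2 fold change 0.41, SE 0.089, adjusted p = 0.0356). It lost the call without library 2 or 3 of either genotype (0.0942 to 0.232). *Ssr1*, another subunit, was at 284, 270 and 287 CPM and at 330, 291 and 301 CPM (adjusted p = 0.543).

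Of the 6 genes called in the unpaired fit, 4 belonged to the arm downstream of PERK and ATF4, which also answers to amino acid shortage and mitochondrial stress. Of 16 genes, 14 had positive fold changes, the median was 0.55, and 4 were called against the 3.36% of all genes (10 in the paired fit against 12%, which is 10 of the 21 genes called there), all higher. The serine synthesis enzymes *Psat1* (6.63 ± 1.34 to 13.4 ± 2.70 CPM, log2 fold change 1.02, adjusted p = 0.0212) and *Phgdh* (3.30 ± 0.713 to 6.23 ± 1.06 CPM, 0.92, adjusted p = 0.0455) rose. So did the asparagine synthetase gene *Asns* (31.4 ± 8.82 to 56.1 ± 7.25 CPM, 0.84, adjusted p = 0.0356) and the pseudokinase gene *Trib3* (17.2 ± 4.60 to 34.7 ± 9.32 CPM, 1.01, adjusted p = 0.0383). Without library 2 or 3 of WT or library 2 of Drp1 KO none of the 4 was called, and without library 1 of Drp1 KO *Psat1* alone of the 4 kept the call (*Asns* 0.0571, *Trib3* 0.0734 and *Phgdh* 0.0832). *Phgdh* also lost it without library 3 of Drp1 KO (0.0550) and with median-of-ratios size factors (0.0513), and *Psat1* with length-scaled counts (0.0510). *Ddit3*, the gene of CHOP, was at 118, 61.5 and 51.6 CPM for WT and 186, 157 and 79.6 CPM in Drp1 KO libraries. It overlapped between the groups (log2 fold change 0.87, adjusted p = 0.225), was higher in Drp1 KO in each pair, and was called in the paired fit (adjusted p = 0.00147), without WT library 1 (1.31, adjusted p = 0.0391), with no filter beyond 1 count (0.0269) and without both libraries 1 (0.0314). *Atf3* was at 624 ± 112 and 597 ± 59.8 CPM (adjusted p = 0.899).

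**Figure D4:**
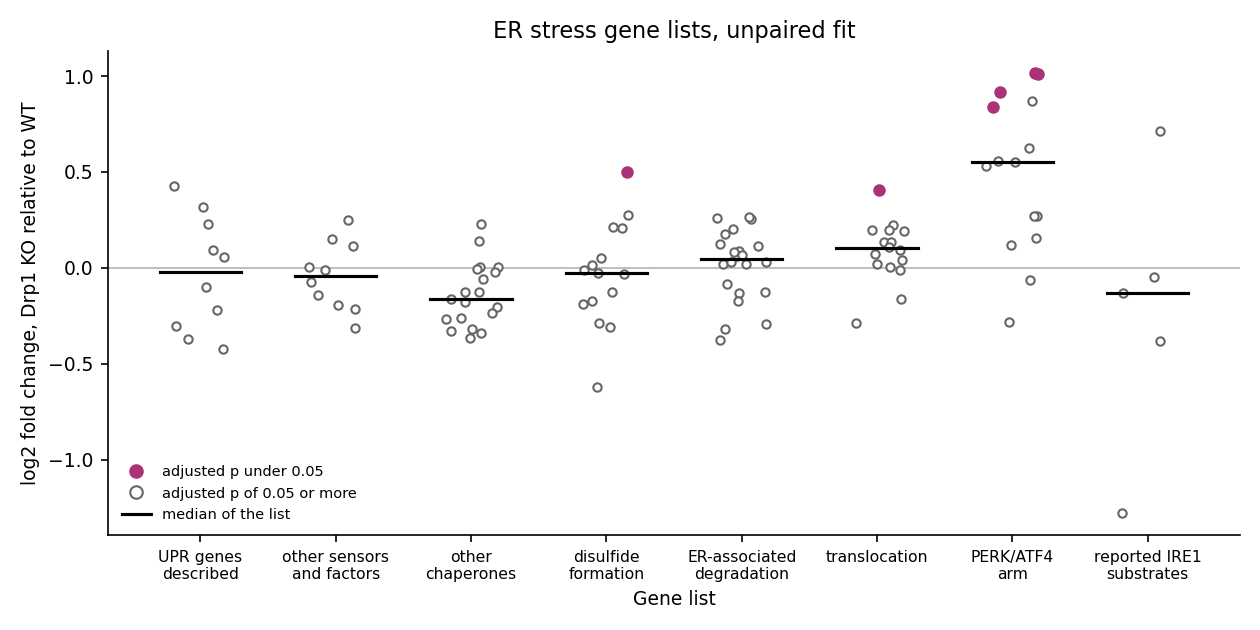
Log2 fold change, Drp1 KO relative to WT, of each gene in the unpaired fit (y axis), by list (x axis). Filled circles have an adjusted p under 0.05 and bars are list medians. The median was -0.02 for the 10 genes described, -0.16 for other chaperones, 0.10 for translocation and 0.55 for the PERK and ATF4 arm.

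Of 6 mRNAs reported as cut by IRE1 outside *Xbp1*, 5 were tested, 4 had negative fold changes and 0 were called (0 at an unadjusted p under 0.05, and 0 in each alternative). *Bloc1s1*, the best known of them, was at 7.80 ± 1.21 and 7.13 ± 0.527 CPM (adjusted p = 0.779), and *Hgsnat* at 43.5 ± 8.52 and 42.2 ± 10.4 CPM (adjusted p = 0.953).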

How the data were processed

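Poly(A) RNA of 3 WT and 3 Drp1 KO BMDM libraries, all after HSS, was quantified by the authors with kallisto 0.46.1 on Ensembl cDNA of GRCm39, and they deposited an estimated count and a TPM value per transcript and library. The estimated counts are not scaled between libraries. The sample labels give 2.1% oxygen and 10% L929 medium, and the methods of the study 2% and 20%. The labels name DESeq2 1.44.0 for the authors' own comparison, which was not used here.

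Of 116873 transcripts, 116159 (99.4%) matched the GENCODE annotation by identifier. The others held 0.542% to 0.575% of counts and were left out. Counts were added per gene and rounded, and the 18506 genes with at least 10 counts in total were tested with edgeR 4.0.16 (R 4.3.3): TMM scaling, the quasi-likelihood test between genotypes, no covariate, Benjamini-Hochberg adjustment over all genes, called at an adjusted p under 0.05. SE is the size of the log2 fold change over the square root of F. The lowest count of any of the 10 genes in a library was 239. A floor of 3 counts is 0.0936 to 0.129 CPM. Where a symbol had 2 identifiers (*Ddit3*), the one with more counts was used. The fit was first tested on simulated data.

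The numbers 1 to 3 of the labels were treated as pairs on the strength of the data alone: deviations from the group mean correlated at 0.547, 0.223 and 0.374 for equal numbers over 12248 genes (WT library 2 with Drp1 KO library 3, 0.344, and other unequal numbers, -0.496 to 0.0788). The paired fit adds the number as a block. No library was a copy of another (chi-square per degree of freedom at least 10.5).

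Alternatives were DESeq2 1.42.0, limma-voom (limma 3.58.1), median-of-ratios size factors, library size only, filterByExpr, no filter beyond 1 count, length-scaled TPM counts, the block, each library left out, and, added later, both libraries 1 left out. The 10 genes and all lists were chosen with earlier results of these data known. Genes named from the other lists were those called plus the 2 with the highest mean TPM of each list, and others are marked as chosen later. The genes most like *Hspa5* were the 5 nearest by the measure given, of which 1 is not reported here, nor is 1 cell type marker. Promoter letters were read from the GRCm39 genome at GENCODE starts.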

Additional observations from a re-analysis of the deposited data

How the results depend on the processing

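The count of the 10 genes called, 0 in the unpaired edgeR fit, was 2 with DESeq2, 1 with filterByExpr and with no filter beyond 1 count, 3 with the replicate block, 3 without both libraries 1 and 0 to 3 with a library left out (3 without Drp1 KO library 1). The share of all genes called moved too, from 3.36% to 8.8%, 4.67%, 4.43%, 12%, 10.5% and, without Drp1 KO library 1, 4.96%. By the criteria of the study the count was 3, with 1 to 4 when a library was left out (1 without Drp1 KO library 2) and 5 without both libraries 1. The median log2 fold change of the 10 genes ran from -0.19 (without Drp1 KO library 1) to 0.049. Of the 103 other genes, 6 were called, 10 with DESeq2 or no filter beyond 1 count, 21 with the block and 18 without both libraries 1, to be read against the same shares. Leaving out a library gave 0 to 8 (0 without library 2 or 3 of WT or library 2 of Drp1 KO, and 3 when Drp1 KO library 3 was dropped). Of these fits, only the one without Drp1 KO library 1 has a share of all genes beside it. The counts of the others cannot be set against all genes. With a library left out, the difference in *Xbp1* spliced share ran from -6.56 to 3.02 percentage points, and log2 fold changes ran from -0.17 to 0.25 for *Herpud1*, -0.080 to 0.18 for *Xbp1*, -0.16 to 0.092 for *Atf3*, -0.0022 to 0.066 for *Erlec1* and -0.26 to 0.12 for *Hgsnat*. Without both libraries 1, *Herpud1* turned to -0.026 and *Atf3* to 0.042. The causes were not tested, and fits with libraries left out also have fewer libraries. With 3 libraries per genotype, the changes in *Hspa5* and *Calr* did not pass the test, which also draws on the spread of other genes. That does not show that their levels were equal.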
